A study of Mus musculus with 4 samples.

Results

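The border of mouse brain slices was compared with their interior across all genes. An edge spot was a spot over tissue with at least 1 of its 6 neighbours on the hexagonal array marked as lying off the tissue, and an interior spot lay at least 3 steps inside the edge spots. By this rule 848 of the 9340 spots over tissue were edge spots and 6985 were interior spots, and the 1507 spots between them entered neither zone. The slices were measured by Visium, in which printed, barcoded spots under a frozen section capture its messenger RNA, and counts are of unique molecular identifiers (UMIs). Each of 4 capture areas held 2 separate pieces of tissue, each taken as 1 slice of 1 mouse.

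One area held a wild-type (WT) slice at rest and a WT slice at 2 days after injury (2 dpi), one held 2 WT slices at 7 dpi, and one held 2 WT slices at 21 dpi. The fourth carried 2 slices taken at 21 dpi from Cthrc1(creER); R26(DTA) mice, called deleter mice here, in which tamoxifen is meant to kill cells that express Cthrc1, a gene of activated fibroblasts. The study set those mice aside because it could not detect the deletion, so the name is that of a genotype and not of a known loss of cells. Injury was photothrombosis, in which an injected dye is lit through the skull and clots the vessels of the cortex below. The study used adult mice of both sexes unless stated otherwise, and the labels give no age or sex. The labels do not say which piece of the first area was at rest: the rule takes the piece of 1017 spots as rest and that of 1726 spots as 2 dpi. Time, genotype and capture area otherwise coincide and cannot be told apart. The slice at rest has no replicate and is given by itself, so tests rest on the 7 injured slices, with 760 edge spots and 6218 interior spots.

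The surface of the brain is wrapped in the meninges. The dura is the outer sheet, the arachnoid below it is sealed by cells joined by tight junctions and rich in transporters, and the pia lies on the brain itself. Beneath the pia, astrocyte endfeet and a basement membrane form the glia limitans, and macrophages of a border type live in the meninges and around vessels. Fibroblasts of these layers lay down fibrillar collagen, and after a cortical injury collagen-rich tissue also forms inside the brain. A slice's border is therefore partly meninges, but it also follows cut surfaces, tears and ventricles, and where tissue ran off the printed array it gave no edge spots.

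**Figure D1:**
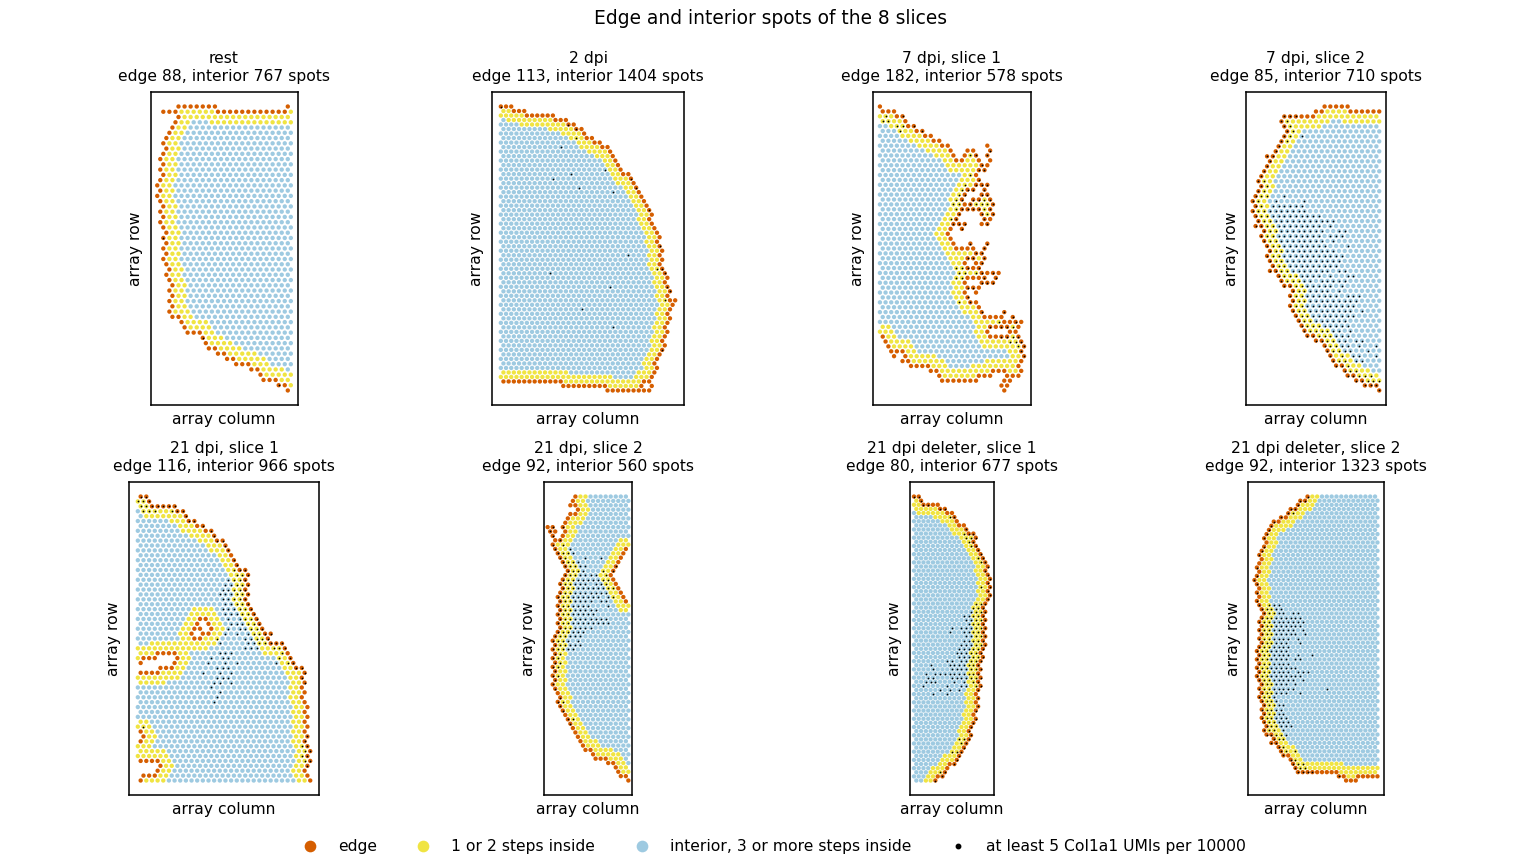
Map of the 8 slices on the capture arrays, with array column on the horizontal and array row on the vertical axis. Colours mark edge spots, spots 1 or 2 steps inside and interior spots, and black dots mark spots with at least 5 Col1a1 UMIs per 10000. Slice 1 at 7 dpi looks torn on one side of the map, which the labels do not state, and 31 of its 182 edge spots line enclosed openings. Slice 1 at 21 dpi has openings inside the tissue, and the collagen-rich spots of the 7 dpi slice 2 and the 21 dpi slices reach from the edge into the interior.

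Edge zones held fewer UMIs per spot than interiors on average. The mean was 5880 to 12320 UMIs per edge spot and 7656 to 17619 per interior spot in the injured slices, and it was lower at the edge in 7 of 7 slices. The mean log2 ratio was -0.59 ± 0.32 (SD, n = 7), or 0.664 times the interior level, with p = 0.01562 by a two-sided exact permutation test, the smallest p that 7 pairs allow. By medians 6 of 7 slices were lower (p = 0.04688, same exact test), and at 2 dpi the edge median was above that of the interior (3738 against 2565.5 UMIs). At rest the means were 7752 and 17472 UMIs. A spot is a patch of tissue that can hold several cells, so fewer cells of a type and less RNA per cell cannot be told apart here. All levels below are CPM, that is UMIs of a gene scaled to a fixed total of UMIs summed over a zone, which removes the difference in total, and each zone's sum held at least 664476 UMIs.

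Collagen-rich spots were more common at the edge. Spots with at least 5 Col1a1 UMIs per 10000 made up 3.41% of edge spots at rest, 10.6% at 2 dpi, 41.8% and 81.2% at 7 dpi, 49.1% and 51.1% at 21 dpi, and 83.8% and 75.0% in the deleter slices. Their share of the interior was 0% at rest, 0.783% at 2 dpi, 0% and 33.1% at 7 dpi, 6.52% and 17.0% at 21 dpi, and 10.49% and 9.90% in the deleter slices. Every slice thus held a larger share of them at the edge than in the interior, and edge and interior differ in collagen-rich tissue as well as in position. The results below are given for all spots first, and then for spots below and above this level.

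In the injured slices, 13778 genes passed the filter on low counts, and 2788 of them (20.2%) differed between edge and interior at an adjusted p under 0.05 in edgeR's quasi-likelihood test with slice as a block. The filter took the zone as group, so a gene could pass it through the zone where it was high. Cdh1, Bglap2 and Ibsp below, which were low in the interior, passed through their edge values, and their large increases rest in part on that choice. Of these, 1707 genes (12.4%) were higher and 1081 (7.85%) lower at the edge. Among all genes tested, edge and interior values did not overlap for 210 genes (1.52%) higher and 118 (0.856%) lower. Higher in 7 of 7 slices were 1204 genes (8.74%), and lower in 7 of 7 were 853 (6.19%). The median log2 fold change over all genes tested was 0.02, so a list of genes with a median near 0 stood with the bulk of the transcriptome. Among the called genes, 884 of those higher and 349 of those lower were also called with each slice left out in turn. When the 2 slices of an area were summed into 1 sample, 575 genes were higher and 78 lower, and among the WT slices alone 512 were higher and 54 lower. Leaving out deleter slice 2 gave 940 higher and 415 lower.

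Genes of the arachnoid barrier were higher at the edge. Of 14 genes listed for the arachnoid and its transport barrier, 13 were higher and 1 lower at the edge, with a median log2 fold change of 2.62. Slc22a2, counted among the higher ones, had 43 UMIs in all. Slc6a13, which takes up GABA and taurine, stood at 13.7 to 104 CPM at the edge (median 46.0) and 2.79 to 10.3 CPM in the interior (median 6.19). All 7 edge values were above every interior value, and its log2 fold change was 3.02 ± 0.38 (SE, adjusted p = 0.000328). Slc22a6, an organic anion transporter, stood at 7.73 to 48.4 CPM at the edge (median 28.6) and 1.49 to 4.38 CPM in the interior (median 2.08), again without overlap, with a log2 fold change of 3.32 ± 0.37. Slc47a1, which extrudes organic cations, reached 143.8 CPM at the edge (median 43.4) and 15.03 CPM in the interior (median 6.45), and its zones overlapped. Aldh1a2, which makes retinoic acid, had edge values of 11.3 to 114 CPM and interior values of 3.26 to 10.04 CPM, without overlap, and a log2 fold change of 2.76 ± 0.43.

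Cdh1, the E-cadherin that holds barrier cells together, had the largest log2 fold change of that list, 4.32 ± 0.41 (adjusted p = 6.35e-05), at low levels of 4.52 to 27.9 CPM at the edge and 0.186 to 1.38 CPM in the interior. Ptgds, which makes prostaglandin D2 and is abundant in leptomeningeal cells, stood at 1254 to 16230 CPM at the edge (median 6492) and 605 to 2332 CPM in the interior (median 1954). It was higher at the edge in 7 of 7 slices (log2 fold change 2.21 ± 0.29, adjusted p = 0.000503), and its zones overlapped through slice 1 at 7 dpi, whose edge had the 1254 CPM. Cldn11, the listed gene that was lower, is a tight junction gene of both the arachnoid and myelin, and fell by 0.67 on the log2 scale (adjusted p = 0.0257). Slc26a7, an anion exchanger, rose by 3.98 ± 0.40, and Fgfbp1, a carrier of fibroblast growth factors, by 3.87 ± 0.44.

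Genes of the dural and pial layers were also higher. Of 7 listed dural genes 6 were higher (median log2 fold change 2.43), and of 5 pial genes tested 4 were higher (median 1.31). Foxc2, a transcription factor of meningeal development, had edge values of 10.1 to 71.8 CPM (median 35.3) and interior values of 0.186 to 6.33 CPM (median 3.89), without overlap, and a log2 fold change of 3.41 ± 0.28. Mgp, which inhibits calcification, stood at 447.7 to 3253 CPM at the edge and 74.8 to 730.4 CPM in the interior. Of the pial genes, Lama1 rose by 1.91 ± 0.34 and Col18a1 by 1.31 ± 0.16. Lama1 reached 26.4 CPM at the edge and 5.06 CPM in the interior.

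**Figure D2:**
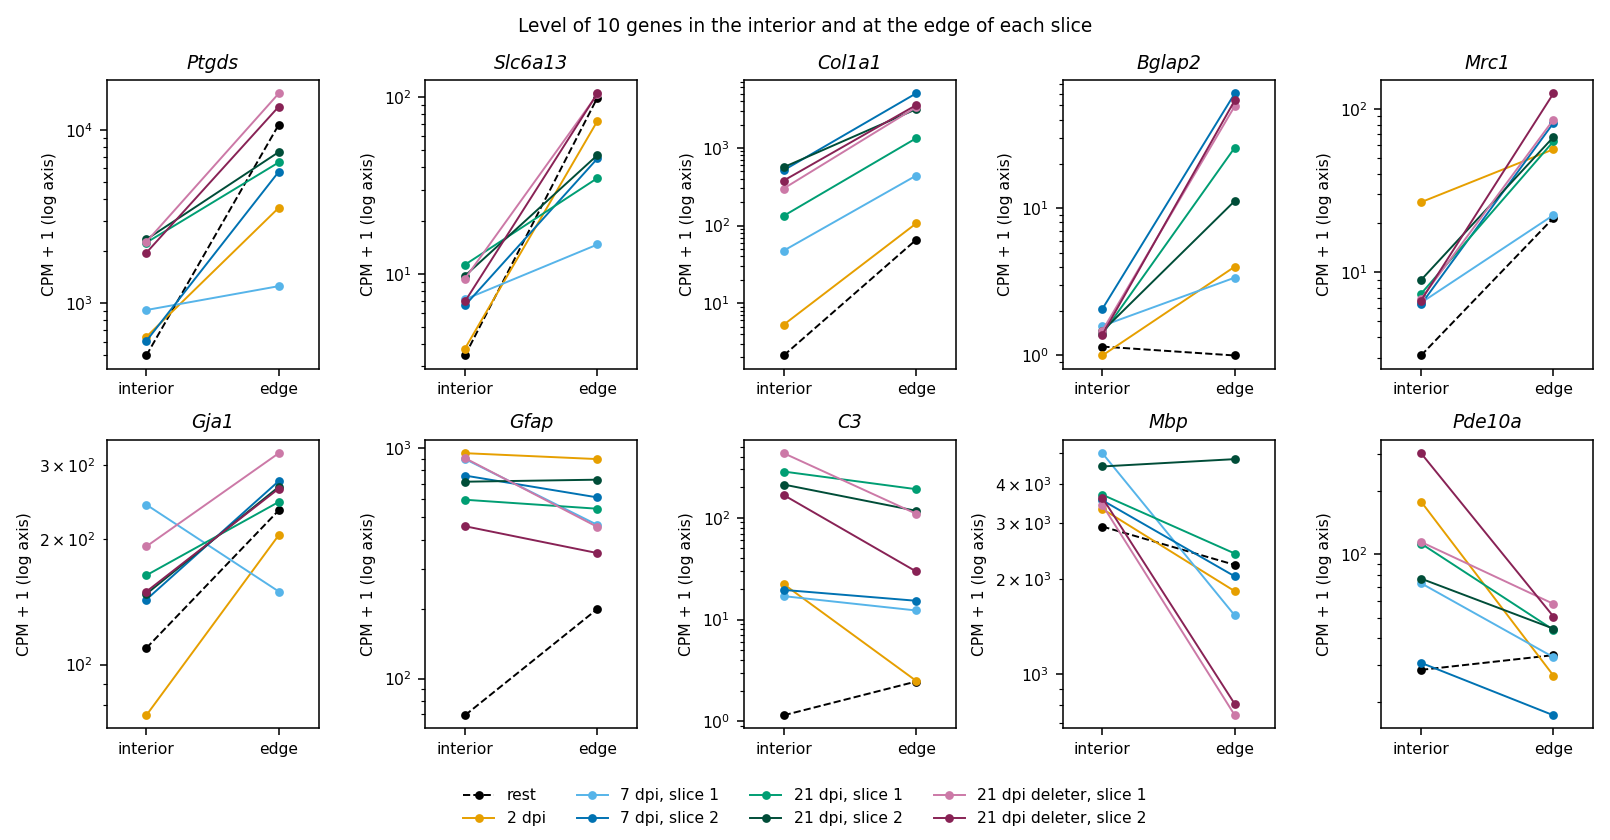
Level of 10 genes in the interior and at the edge of each slice, in CPM + 1 on log axes, with 1 line per slice and the slice at rest dashed. Ptgds, Slc6a13, Col1a1 and Mrc1 rise from interior to edge in all 8 slices, Gja1 does so in all but slice 1 at 7 dpi, and Gfap rises at rest (68.3 to 199 CPM) and is lower at the edge in 6 of the 7 injured slices.

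All 21 listed genes of fibrillar collagens and fibroblast matrix were higher at the edge, each in 7 of 7 slices, with a median log2 fold change of 2.59 and a range from Sparc at 1.72 to Ogn at 3.995. Col1a1, a chain of collagen I, stood at 105 to 5035 CPM at the edge (median 3147) and 4.28 to 563 CPM in the interior (median 298.5). Its zones overlapped through the slice at 2 dpi and slice 1 at 7 dpi, which were low in both, and its log2 fold change was 3.37 ± 0.18 (adjusted p = 1.64e-06). Ogn, a small proteoglycan of connective tissue, had edge values of 39.2 to 417 CPM and interior values of 9.72 to 23.1 CPM, without overlap. The related proteoglycans Fmod, Omd and Aspn rose by 3.76 ± 0.23, 3.89 ± 0.37 and 3.81 ± 0.45. Thbs1, a matricellular protein, rose by 3.48 ± 0.40, and Sfrp2, a secreted Wnt modulator, by 3.73 ± 0.46. Itgbl1, a secreted integrin-like protein, rose by 3.41 ± 0.29.

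All 5 myofibroblast genes were higher at the edge, of which Fn1 is also in the fibroblast matrix list and Acta2 in the smooth muscle list. Acta2, the contractile actin that smooth muscle also makes, stood at 37.6 to 160.1 CPM at the edge (median 110.0) and 7.37 to 44.5 CPM in the interior (median 10.52). Cthrc1 had 30.1 CPM at the edge and 7.9 CPM in the interior at 2 dpi, 50.5 and 16.4 CPM in slice 1 and 110.8 and 33.4 CPM in slice 2 at 7 dpi, 21.0 and 11.9 CPM and 23.0 and 11.1 CPM at 21 dpi, and 11.7 and 6.4 CPM and 9.9 and 8.3 CPM in the deleter slices. The edge was above the interior in each of the 7, and the log2 fold change was 1.303 ± 0.19 (adjusted p = 0.00108). Postn, a matrix protein of wound fibroblasts, stood at 4.52 CPM at the edge and 4.0 CPM in the interior at 2 dpi, and its edge was above its interior by 2.21 to 2.95 on the log2 scale in the other 6 slices.

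Bglap2, an osteocalcin gene, had the largest log2 fold change, 5.72 ± 0.53 (adjusted p = 5.03e-05), among called genes that were higher in all 7 slices with a mean of at least 20 CPM at the edge. It stood at 2.38 to 59.2 CPM at the edge (median 24.8) and 0 to 1.07 CPM in the interior (median 0.461). No interior value reached the lowest edge value. The Bglap copies lie side by side on chromosome 3 (mm10; Bglap2 at 88377736 to 88378699, Bglap at 88383501 to 88384464, minus strand), and 69.2% of the 50-base windows of the Bglap2 transcript also occur in Bglap, so the split of reads between them is uncertain. Bglap itself did not pass the filter on low counts, with a median of 33.8 CPM at the edge and 0.398 CPM in the interior. Ibsp, bone sialoprotein, rose by 5.92 ± 0.47 from an interior median of 0.0982 CPM to an edge median of 7.34 CPM. Comp, a cartilage matrix protein, rose by 4.86 ± 0.37, with edge values of 0.594 to 82.8 CPM and interior values of 0.0930 to 2.55 CPM that overlapped through the slice at 2 dpi and slice 1 at 7 dpi. Alpl, an alkaline phosphatase of bone that is also a dural marker, was higher in 6 of 7 slices, and rose by 3.37 ± 0.63 (adjusted p = 0.00422). Of the 8 genes listed for skeletal muscle, bone and skin, Ibsp and Acta1 alone passed the filter, so the list gives no account of these tissues. Acta1, the actin of skeletal muscle, gave a log2 fold change of -0.44 (adjusted p = 0.326).

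Of 14 basement membrane genes 13 were higher, with a median of 1.31, led by Nid1, a linker of laminin and collagen IV (log2 fold change 2.32 ± 0.13). Agrn, the heparan sulfate proteoglycan agrin, was the one not called, at 0.14 ± 0.10. Of 11 genes of the insulin-like growth factor axis 9 were higher. Igf2, a growth factor of meninges and vessels, stood at 96.3 to 682 CPM at the edge (median 471) and 47.5 to 121.6 CPM in the interior (median 71.7), and was higher in 6 of 7 slices. H19, the noncoding RNA beside it, rose by 3.70 ± 0.34. Of 15 genes of the TGF-beta axis 9 were higher (median 1.08). Among its latent binding proteins Ltbp2 rose by 2.62 ± 0.30, while Itgb8, an integrin chain that activates the ligand, gave -0.12 ± 0.21.

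All 8 tested genes of border-associated macrophages were higher in 7 of 7 slices (median 2.38), and Lyve1 and Cd163 did not pass the filter. Mrc1, the mannose receptor, stood at 21.4 to 123.7 CPM at the edge (median 66.4) and 5.35 to 25.9 CPM in the interior (median 5.86). The zones overlapped because the interior at 2 dpi, with 25.9 CPM, was above the edge of slice 1 at 7 dpi, and the log2 fold change was 3.18 ± 0.37 (adjusted p = 0.000222). Cbr2, a carbonyl reductase of these cells, did not overlap, at 4.16 to 37.6 CPM and 1.51 to 2.75 CPM. Of 9 genes of homeostatic microglia, in contrast, Tmem119 alone was called, at 0.69 ± 0.16, and the list's median was -0.06. Of 11 genes of scar and disease-associated macrophages, Spp1 (0.74 ± 0.23) and Cd63 (0.43 ± 0.12) were higher and Cst7, a protease inhibitor, fell by 0.78 ± 0.21. Trem2, the lipid-sensing receptor of these cells, gave -0.07 ± 0.16, with 73.7 to 410.2 CPM at the edge and 60.6 to 512.9 CPM in the interior. The increases of Spp1 and Cd63 held over all spots only. Without collagen-rich spots they gave -0.45 and -0.11, not called, and within collagen-rich spots both were called lower (-1.09 and -0.82).

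Complement genes moved in both directions. Cfb, C1s1, C1ra, C2 and Serping1 were higher at the edge. C3, the central component, was lower in 7 of 7 slices, at 1.505 to 190.1 CPM at the edge (median 28.7) and 16.0 to 430.4 CPM in the interior (median 166), and fell by 1.21 ± 0.29 (adjusted p = 0.0138). The 3 C1q chains gave -0.06 to 0.00. Of 6 genes of MHC class II 4 were higher, with H2-Aa at 1.42 ± 0.14, and of 11 interferon-stimulated genes 5 were higher. Lymphocyte genes were mostly too low to test: 2 of 9 T cell genes and 5 of 8 plasma cell and B cell genes passed the filter, of which Jchain was higher and Trbc2 and Ighm lower. Among 12 chemokine genes tested, Cxcl12, which meningeal and vascular cells make, rose by 1.81 ± 0.19, and Cxcl16 was the other one called.

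Genes of vessel walls were called in both directions, mostly higher. Of 7 smooth muscle genes 6 were higher (median 2.09). Myh11, the smooth muscle myosin, stood at 3.01 to 39.6 CPM at the edge and 1.32 to 3.40 CPM in the interior, overlapping through the slice at 2 dpi alone. Of 8 pericyte genes 3 were higher, and of 12 genes of brain endothelium 8 were higher and 1 lower. Cdh5, the endothelial cadherin, rose by 1.76 ± 0.20, and Mfsd2a, a lipid transporter of the blood-brain barrier, fell by 0.76 ± 0.22, at 4.40 to 12.2 CPM at the edge and 9.34 to 17.4 CPM in the interior. The 4 haemoglobin genes tested were higher, with Hbb-bs at 0.78 ± 0.21. Hbb-bs shares 57.5% of its 50-base windows with Hbb-bt, and Hba-a1 shares 67.5% with Hba-a2, so the split within each pair is uncertain, and the part of blood in other results was not tested.

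**Figure D3:**
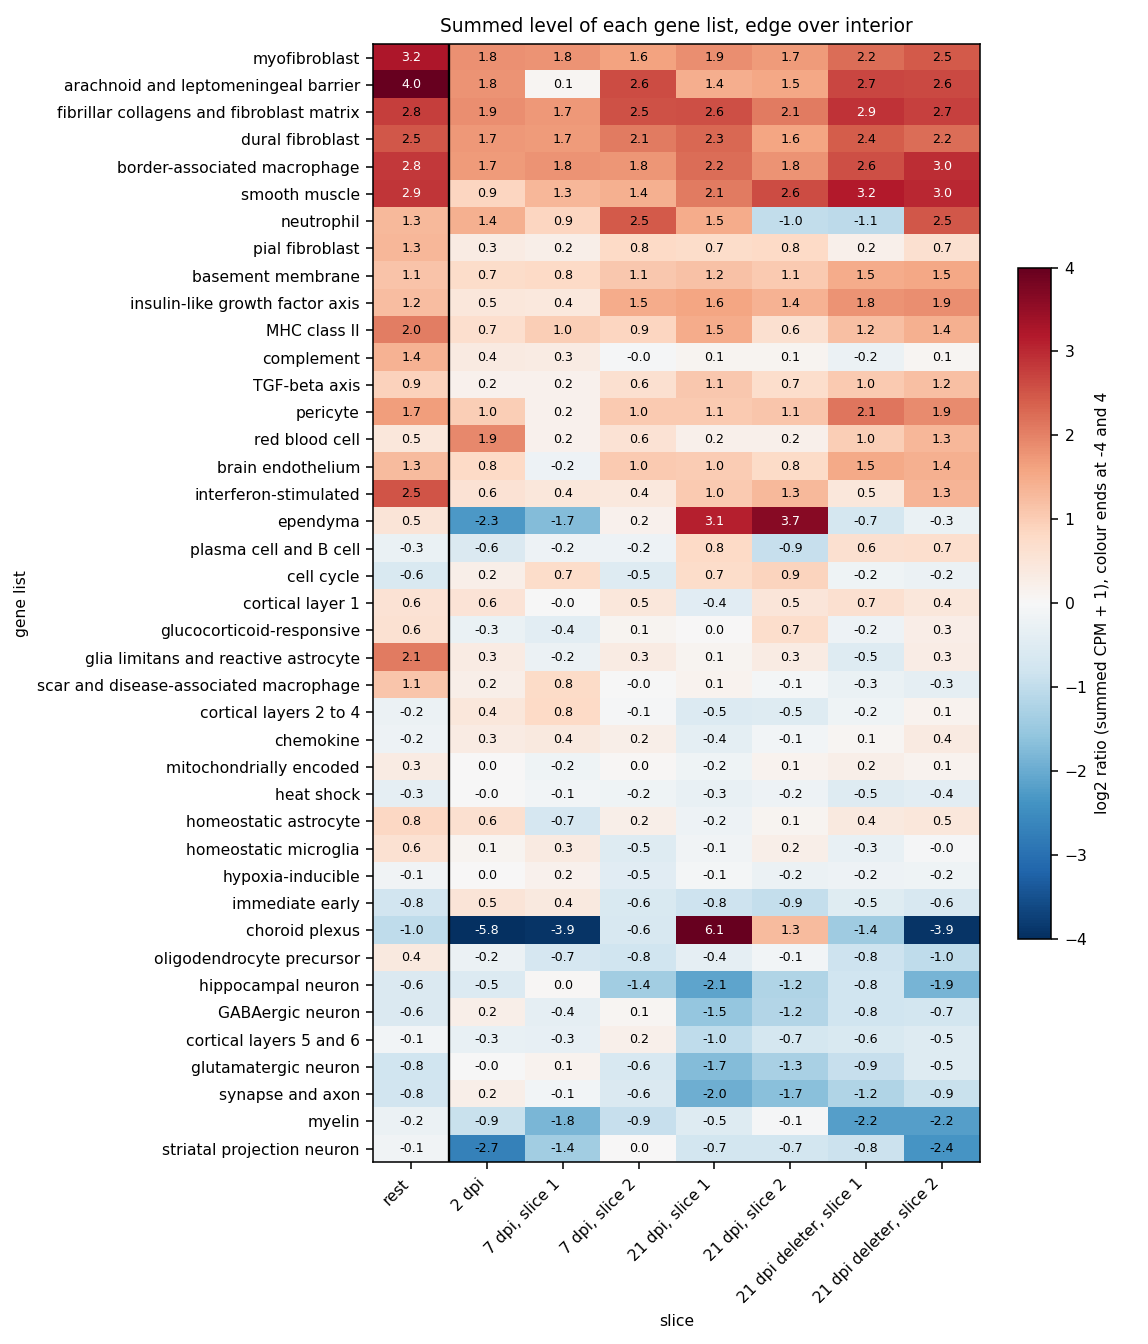
Summed level of each gene list at the edge over the interior for each slice, as a log2 ratio of summed CPM + 1, with the slice at rest left of the line. Sums follow the most abundant genes of a list, such as Ptgds in the arachnoid list. Fibroblast, arachnoid, border-associated macrophage and smooth muscle lists are positive in every slice, the arachnoid list least so in slice 1 at 7 dpi (0.1), and ependyma and choroid plexus lists change sign between slices.

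Astrocyte genes were called in both directions. Of 15 genes of the glia limitans and reactive astrocytes 6 were higher and 2 lower, with a median of 0.18. Myoc, a secreted protein listed for surface astrocytes, had edge values of 31.6 to 255 CPM (median 123.8) and interior values of 3.26 to 25.2 CPM (median 12.8), without overlap, and rose by 3.42 ± 0.40. Gfap, the main intermediate filament of reactive astrocytes, stood at 349 to 893.9 CPM at the edge and 457 to 948.4 CPM in the interior, a log2 fold change of -0.36 ± 0.14 that was not called (adjusted p = 0.0896). Aqp4, the water channel of the endfeet, gave 0.12 ± 0.15. Serpina3n, a reactive astrocyte gene, was lower in 7 of 7 slices and fell by 1.11 ± 0.21, and Chil1 fell by 1.03 ± 0.32. Of 12 homeostatic astrocyte genes 3 were higher, Gja1 and Gjb6 among them. Gja1 and Gjb6, the gap junction genes, are also expressed by leptomeningeal fibroblasts.

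Listed neuronal genes were called lower or not called, apart from those of cortical layers. Of 12 genes of synapse and axon 9 were lower (median -0.81), of 8 glutamatergic genes 6, of 9 GABAergic genes 3, and of 9 genes of striatal projection neurons 8 (median -1.50), and no member of these lists was higher. Lower in 7 of 7 slices were 2 synapse genes, 5 striatal genes and no glutamatergic or GABAergic gene. The summed synapse list gave log2 ratios of 0.23 at 2 dpi and -0.10 and -0.56 at 7 dpi. It gave -1.96 and -1.66 in the WT slices at 21 dpi and -1.21 and -0.91 in the deleter slices. Snap25, a vesicle fusion protein, stood at 640.3 to 1705 CPM at the edge and 1349 to 2973 CPM in the interior. Camk2a, a kinase whose messenger RNA also lies in dendrites, gave 0.00 ± 0.16. Rgs9, Tac1 and Pde10a, genes of the striatum, fell by 1.63, 1.5 and 1.48 on the log2 scale. Pde10a reached 301 CPM in the interior and 57.2 CPM at the edge. The striatum lies deep in the hemisphere.

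Layer genes of the cortex were called in both directions. Among 10 genes of layers 5 and 6 there were 5 lower and 2 higher. Rprm, of layer 6, did not overlap, with 3.82 to 14.0 CPM at the edge and 21.1 to 56.8 CPM in the interior, and fell by 1.60 ± 0.20. Hs3st4, which sulfates heparan sulfate in deep-layer neurons, and Syt6, a synaptotagmin, did not overlap either and fell by 1.54 ± 0.24 and 1.90 ± 0.29. Foxp2, a transcription factor of layer 6, was higher, at 1.02 ± 0.30. Of 8 genes of layers 2 to 4, Rorb alone was called, and fell by 0.67 ± 0.19. Ndnf, a marker of interneurons of layer 1, stood at 11.3 to 49.7 CPM at the edge and 5.53 to 10.3 CPM in the interior, without overlap.

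All 10 myelin genes were lower at the edge (median -1.10). Mbp, myelin basic protein, stood at 740.9 to 4786 CPM at the edge (median 1829) and 3332 to 4998 CPM in the interior (median 3614), lower in 6 of 7 slices, and fell by 1.14 ± 0.26 (adjusted p = 0.0123). Klk6, a protease of oligodendrocytes, fell by 1.54 ± 0.22, and Gjb1, their connexin, by 1.36 ± 0.31. Pcp4, a calmodulin-binding protein of neurons, stood at 184 to 403.1 CPM at the edge and 400.6 to 1349 CPM in the interior and fell by 1.43 ± 0.12. The remaining genes with the largest decreases in all 7 slices were Nr4a2, Hpca, Sez6, Ano3, Trhde and 1700047M11Rik, which fell by 1.27 to 1.34 on the log2 scale. Sez6 among them did not overlap, with 20.5 to 54.1 CPM at the edge and 63.7 to 135.2 CPM in the interior.

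The slice at rest, which has no replicate and hence no test, shows the border without injury. Of 11733 genes with at least 50 UMIs over both zones, 714 (6.09%) were more than 2-fold higher at its edge and 907 (7.73%) more than 2-fold lower by the observed ratio. Counting error is wide for many of them: the 95% counting interval lay wholly above equal levels for 616 of the 714 and above 2-fold for 235, and wholly below equal levels for 437 of the 907 and beyond 2-fold for 14, and 86 of the 907 had 0 UMIs at the edge. Ogn had 84 UMIs in the 88 edge spots and 21 in the 767 interior spots, a ratio of CPM of 78.6 with a 95% counting interval of 48.25 to 133.5, which covers counting error only. Myoc was 62.4 times higher, Slc6a13 39.9 times, Thbd, the thrombin receptor thrombomodulin, 31.6 times, and Aebp1, a collagen-binding protein, 26.5 times. Dcn was 25.3 times and Efemp1, a fibulin, 22.1 times higher, followed by Ptgds at 21.5 times, Slc6a20a at 18.5 times and Mgp at 18.4 times. Ptgds had 10720 CPM at the edge and 498.7 CPM in the interior, and the ratio was above that of every injured slice.

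Some genes were higher at the resting edge but not at the injured one. Gfap had 199 CPM at the edge and 68.3 CPM in the interior at rest, a ratio of 2.92 (counting interval 2.42 to 3.5). Aqp4 had 234.5 and 73.6 CPM, a ratio of 3.19 (2.68 to 3.77), and C1qa 111 and 59.1 CPM, a ratio of 1.89 (1.47 to 2.39). The interior of the injured slices held 456.7 to 948.4 CPM of Gfap, above both zones at rest. Whether the ratio itself changed with injury was not tested, since 1 slice was at rest. Osteocalcin genes were nearly absent at rest, with 0 UMIs of Bglap2 at the edge and 0 of Bglap in either zone, and the edge's depth allows up to 4.40 CPM for a count of 0. The 10 genes with the largest decreases at rest, from Peak1 to Yju2, had 0 edge UMIs each. Their interior levels were 1.70 to 2.09 times the 4.40 CPM that depth allows for a count of 0. They were picked as the lowest ratios of many genes, so these values set no bound on their decrease. Of the 1123 genes that were higher at the injured edge and had enough UMIs at rest, 958 (85.3%) were higher there too, 450 (40.1%) of them by more than 2-fold. Of the 1060 lower ones, 950 (89.6%) were lower at rest, and 127 (12.0%) by more than 2-fold. Over all 11733 genes measured at rest, 6.09% were past 2-fold higher and 7.73% past 2-fold lower, so the 12.0% lay not far above the share over all genes. At rest the median log2 ratio was 0.88 for genes called higher and -0.47 for those called lower, against -0.09 over all genes tested. Most genes tested were thus lower at the resting edge, and the 89.6% is to be read beside that.

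Levels were also followed by distance from the edge. A summed list follows its most abundant genes: Ptgds alone made up most of the arachnoid sum at the edge at rest and in slice 1 at 7 dpi. At rest, the summed arachnoid list went from 11640 CPM at the edge to 1515 CPM 1 step inside, 1840 CPM at 2 steps and 684 CPM at 3 to 4 steps. The same list went from 4340 to 1781 CPM over the first step at 2 dpi, and in slice 1 at 21 dpi from 7353 to 5756, 4880 and 4399 CPM at 1, 2 and 3 to 4 steps. Deleter slice 1 went from 17370 CPM at the edge to 5831 CPM at 1 step and stayed at 6572 CPM at 3 to 4 steps. Slice 1 at 7 dpi was the exception, with 1594 CPM at its edge, 558 CPM at 2 steps and 2492 CPM at 8 or more steps. Its myelin list, which shares Cldn11 with the arachnoid list, summed to 24310 CPM at 8 or more steps. The parts of Cldn11 and Ptgds in the arachnoid sum at that depth were not tested. Border-associated macrophage genes summed to 55.7 CPM at the edge at rest and to 227 to 547 CPM in the injured slices, and at 8 or more steps to 3.12 CPM at rest and to 15.7 to 142.7 CPM in the injured slices.

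**Figure D4:**
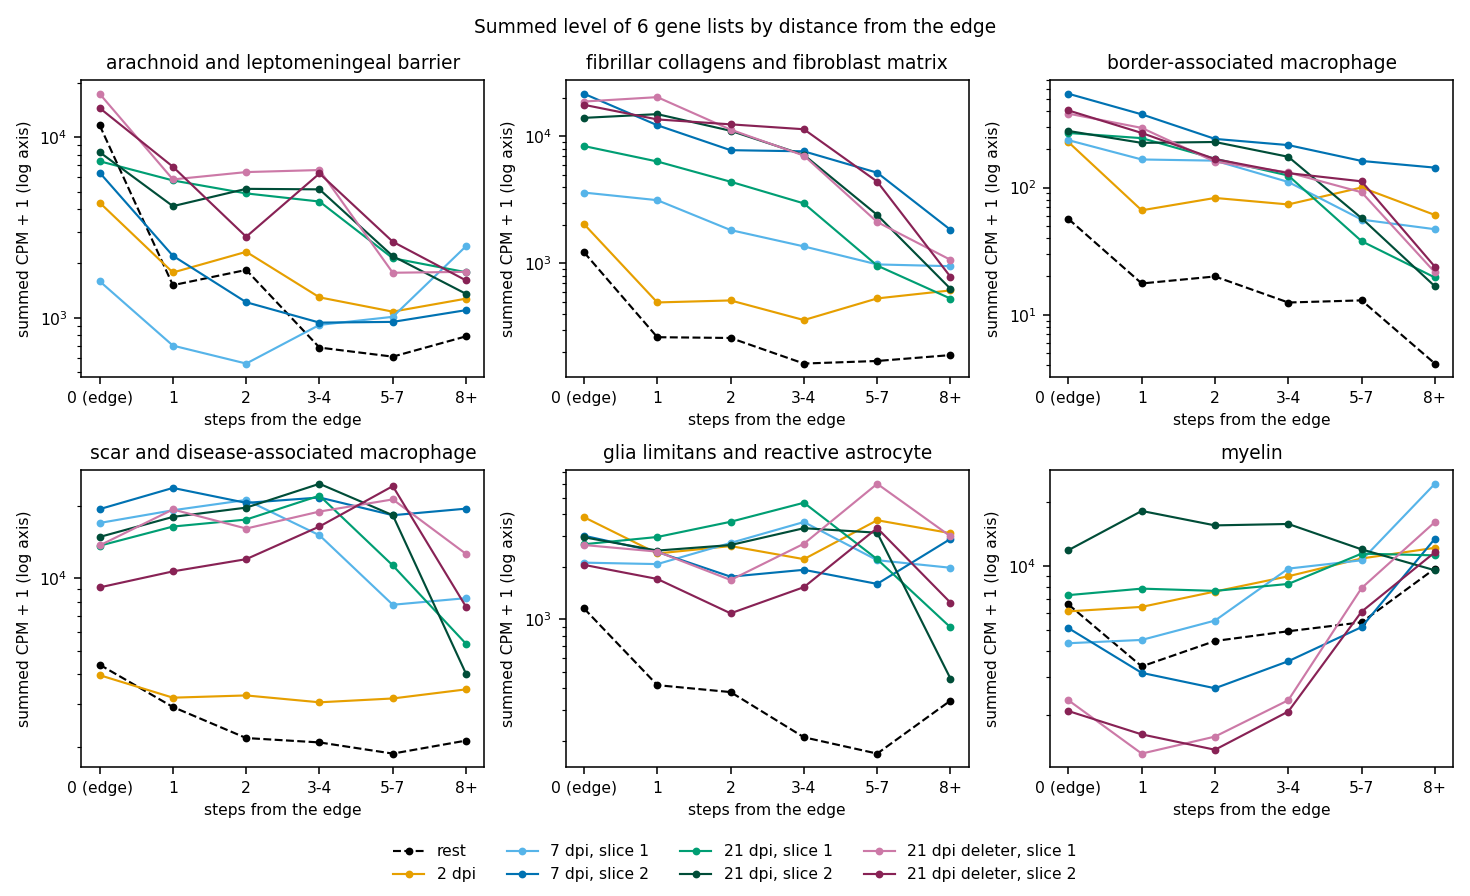
Summed CPM + 1 of 6 gene lists (log axes) at 0, 1, 2, 3 to 4, 5 to 7 and 8 or more steps from the edge, with 1 line per slice and the slice at rest dashed. Sums follow the most abundant genes of a list, such as Ptgds in the arachnoid list. The arachnoid and border-associated macrophage lists are highest at the edge, but for the arachnoid list of slice 1 at 7 dpi, and the myelin list has its minimum within 2 steps of the edge in every slice but slice 2 at 21 dpi, where it lies at 8 or more steps (9550 CPM).

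Without the collagen-rich spots, the number of genes called fell to 0 at an adjusted p under 0.05 in edgeR. Of 13168 genes tested, 642 had an unadjusted p under 0.05, no more than that threshold gives by chance. This left 363 edge spots, 13 to 106 per slice, and the median SE of the genes called before rose from 0.20 to 0.34 for the higher ones and from 0.17 to 0.24 for the lower ones. Their estimates shrank too. The median log2 fold change went from 1.00 to 0.34 for the genes that had been higher and from -0.66 to -0.38 for those that had been lower. The sign was kept by 1349 of 1525 higher genes and by 1074 of 1079 lower genes still tested. These genes were picked as called in the same slices, and 5612 of the 6218 interior spots were kept. Their kept signs are therefore no separate support. The arachnoid list had a median of 1.85, with 11 of 12 genes above 0, and the fibroblast matrix list went down to 1.01, with 19 of 20 above 0. Spots were removed by their level of Col1a1, a member of the fibroblast matrix list. The fall of that list is therefore set in part by the removal itself. Striatal genes stayed at -1.56 and myelin genes at -0.87. The sign changed for Spp1 (-0.45), Foxp2 (-0.95), Vim (-0.11), Cd63 (-0.11), Hbb-bs (-0.14) and Pdgfra (-0.0685).

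A comparison within collagen-rich spots alone was added after the data had been seen. It set the 47 to 69 collagen-rich edge spots of a slice against its 63 to 235 collagen-rich interior spots, in the 5 slices that had both in number (slice 2 at 7 dpi and the 4 slices at 21 dpi). Of 10296 genes tested, 721 (7.00%) were higher at the edge and 786 (7.63%) lower. Collagen-rich edge and collagen-rich interior thus differed, although both were chosen for Col1a1, which itself was still 2.45-fold higher at the edge. The filter on low counts again took the zone as group, so a gene could pass it through the zone where it was high. The largest changes named below, such as those of Bglap and Saa3, rest in part on that choice.

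Within collagen-rich spots, Alpl had 161.5 CPM at the edge and 3.22 CPM in the interior in slice 2 at 7 dpi, 262 and 17.2 CPM in slice 1 and 151 and 5.18 CPM in slice 2 at 21 dpi, and 94.0 and 5.64 CPM and 135.5 and 10.9 CPM in the deleter slices. No interior value came near an edge value, and the log2 fold change was 4.28 ± 0.23 (adjusted p = 4.85e-07). Bglap was the gene with the largest increase, 5.997 ± 0.36, with 41.0 to 169 CPM at the edge and 0 to 5.24 CPM in the interior. Myh11 stood at 28.1 to 39.2 CPM at the edge and 2.03 to 3.64 CPM in the interior, and Mrc1 at 94.0 to 162.7 CPM and 10.1 to 22.6 CPM, both without overlap. Bglap2, Chad, a cartilage leucine-rich protein, Comp, Dapl1, Sfrp2, Fgfbp1, Aspn, Scara5 and Cilp2 were the others with the largest increases among genes higher in all 5 slices with a mean of at least 20 CPM at the edge. Of 11 arachnoid genes 7 were higher and 1 lower, all 6 smooth muscle genes and all 4 haemoglobin genes were higher, and all 12 genes encoded by mitochondria were higher (median 0.80). Of 4 myofibroblast genes tested 2 were higher, while Cthrc1 (0.43) and Fn1 (0.24) were not called.

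Among genes lower at the edge of collagen-rich tissue, Saa3, an acute phase protein, had 0 CPM at the edge and 15.7 CPM in the interior in slice 2 at 7 dpi, 12.1 and 138 CPM and 2.56 and 50.6 CPM at 21 dpi, and 4.86 and 70.1 CPM and 1.51 and 160.3 CPM in the deleter slices. All 5 interiors were above all edges, and it fell by 4.51 ± 0.33 (adjusted p = 2.00e-06). C3 stood at 18.4 and 25.0 CPM in slice 2 at 7 dpi, and at 31.6 to 175 CPM at the edge and 714 to 1378 CPM in the interior in the 4 slices at 21 dpi, and fell by 3.02 ± 0.32. Cst7 had 14.6 to 48.7 CPM at the edge and 57.2 to 126.5 CPM in the interior, without overlap. Of 11 genes of scar and disease-associated macrophages 9 were lower at the edge and none higher (median -1.25), as were 5 of 9 microglia genes, 5 of 11 complement genes, 3 of 6 genes of MHC class II, 9 of 15 reactive astrocyte genes (1 higher) and all 10 myelin genes. Among genes lower in all 5 slices with a mean of at least 20 CPM in the interior, Apoc4, Mmp3, Apoc1, Cd5l, Apoc2, Gdf15, Serpina3n, Cntf, Cxcl9 and Pla1a followed, with decreases of 2.25 to 2.88 on the log2 scale. Chil1 fell by 3.10 ± 0.34 (adjusted p = 5.03e-05) and was lower in all but slice 2 at 7 dpi. Among pial genes, 3 of 5 were lower here, Col18a1 with them (fell by 0.60 ± 0.16), which was higher at the edge over all spots.

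**Figure D5:**
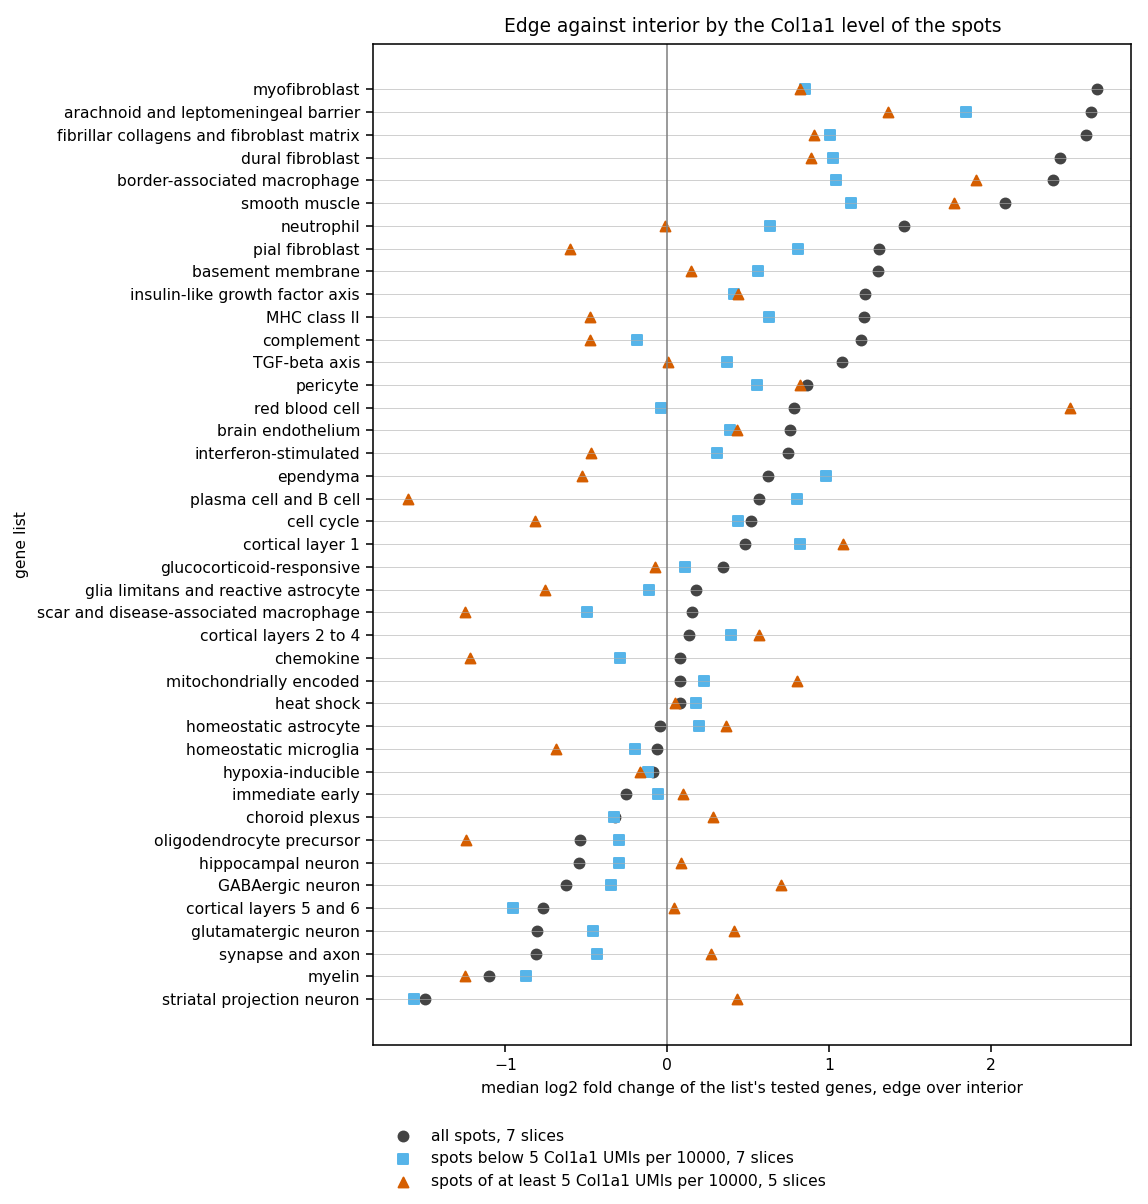
Median log2 fold change of the tested genes of each list, edge over interior, for all spots, for spots below and for spots of at least 5 Col1a1 UMIs per 10000. The arachnoid and border-associated macrophage lists are above 0 in all 3 sets, the scar and disease-associated macrophage list lies at 0.15, -0.50 and -1.25, and the glutamatergic, GABAergic, striatal and synapse lists lie below 0 over all spots and above 0 among collagen-rich spots.

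The difference between zones was then compared between times and genotypes. Between 7 and 21 dpi, no gene's edge-to-interior difference changed at an adjusted p under 0.05 in edgeR (0 of 13830 genes, 0.00%). At an unadjusted p under 0.05 in the same test, 1789 genes changed, more than that threshold gives by chance. DESeq2 called 13 genes with a larger and 55 with a smaller edge-to-interior ratio at 21 dpi. It gave 9653 of the 13830 genes no adjusted p, so its correction ran over fewer genes. Syndig1, a synapse gene, had the smallest adjusted p (0.161), with an estimate of -2.06 on the log2 scale. Syndig1 had 28.5 CPM at the edge and 22.0 CPM in the interior in slice 1 and 23.9 and 24.2 CPM in slice 2 at 7 dpi, and 7.34 to 12.2 CPM at the edge and 25.4 to 43.1 CPM in the interior in the 4 slices at 21 dpi. On simulated counts with 2 slices against 4, such a test recovered 4% of genes changed 2-fold and 59% of those changed 4-fold. The count of 0 depended on the slices: the WT slices alone (2 against 2) gave 63 genes with a larger and 42 with a smaller ratio at 21 dpi, and leaving out slice 2 at 7 dpi gave 43 and 19.

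Between deleter and WT slices at 21 dpi, the edge-to-interior difference was larger for 78 genes (0.562%) and smaller for 286 (2.06%) of 13876. Leaving out WT slice 2 gave 250 and 512, WT slice 1 gave 147 higher, deleter slice 1 gave 23 and 158, and deleter slice 2 gave 7 and 151. All 7 ependymal genes had a lower edge-to-interior ratio in the deleter slices, as had 6 of 7 choroid plexus genes, 10 of 10 myelin genes and none of the 21 fibroblast matrix genes. Of those 21 genes, 1 was called with a larger ratio, and 19 estimates lay above 0 (median 0.36). Ccdc153, a gene of motile cilia, gave log2 ratios of 4.08 and 4.98 in the WT slices and -1.86 and -3.03 in the deleter slices (adjusted p = 1.73e-07). Tmem72, Tctex1d4, Drc7, Mapk15 and Rd3 had the same signs. An enclosed opening was lined by 12 edge spots in WT slice 1 and by 0 in WT slice 2 and both deleter slices. The summed ependyma list gave log2 ratios of 3.1 and 3.7 in the WT and -0.7 and -0.3 in the deleter slices, and the part of openings in the difference was not tested.

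Of 14 arachnoid genes 4 had a larger ratio in the deleter slices and 1, Cldn11, a smaller one. Ptgds gave log2 ratios of 1.54 and 1.67 in the WT slices and 2.85 and 2.8 in the deleter slices (adjusted p = 0.00231), Slc6a13 1.63 and 2.27 against 3.46 and 3.91, and Slc22a6 2.41 and 1.48 against 4.004 and 3.69. The serotonin receptor gene Htr5a, and Dkkl1, Galnt9 and Sidt1 also had a larger ratio in the deleter slices. The share of collagen-rich edge spots moved with genotype too (49.1% and 51.1% against 83.8% and 75.0%), and its part in these differences was not tested. The fit without such spots called 302 genes larger and 466 smaller, but it cannot decide this. It kept 59 and 45 edge spots in the WT slices and 13 and 23 in the deleter slices. Its median log2 fold change over all genes tested was -0.20, against -0.009 with all spots. Mbp gave -0.62 and 0.08 in the WT slices and -2.21 and -2.17 in the deleter slices. Cthrc1, the gene that drives the deletion, gave 0.78 and 0.99 against 0.78 and 0.23, a difference that was not called (adjusted p = 0.754). On simulated counts this test of genotype recovered 2% of genes changed 2-fold and 28% of those changed 4-fold, so a gene not called may still differ.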

How the data were processed

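The authors sequenced 4 Visium capture areas, aligned reads to mm10 with Space Ranger 2.0.0 (per the labels' processing notes and the methods) and deposited UMI counts of every gene in each spot, not normalized, with spot positions. Positions were deposited as other numbers, and their image scale factors were not used. Library totals were 11332780 to 23677298 UMIs per slice, and 4 spots held none.

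Spots were grouped by the array's hexagonal neighbours. UMI counts were summed per slice and zone and tested with edgeR 4.0.16 in R 4.3.3 (TMM, filterByExpr with the zone as group, quasi-likelihood F test, slice as a block, Benjamini-Hochberg, threshold 0.05). Standard errors are the log2 fold change over the square root of F. Slice ratios are log2 of CPM + 1. Both slices of an area share a library preparation, so p-values assume 7 independent slices. On simulated counts at a dispersion of 0.05 (13778 genes, 200 changed) the edge test recovered 80% of genes changed 2-fold and 97% of those changed 4-fold, and 3.80% of its calls were false. These counts were drawn independently, with the same dispersion for every gene, so the false share does not cover slices that share an area.

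Gene lists, members and tests were chosen with earlier results of these data known. Genes named by rule were the 15 with the largest change in each direction (called, same sign in 7 slices, at least 20 CPM), the 10 per direction at rest (at least 100 UMIs) and 5 per direction for each interaction, plus list members. In collagen-rich spots, the 12 leading genes per direction were named after their values were seen. Alternatives were DESeq2 1.42.0, limma 3.58.1, no TMM, no filter, other edge and interior depths, 1000 UMIs per spot as minimum or by thinning, sums per area, subsets of slices, no collagen-rich spots, and each slice left out. Symbols shared by 2 identifiers (78) were not used for lists. Positions are from GENCODE M21. Results for some genes are not reported here.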

Additional observations from a re-analysis of the deposited data

Results flagged for a closer look

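In 7 of 103 gene values examined, 1 of the 7 injured slices lay far from the others (Dixon's test at the 95% level), and chance alone gives about 1 in 20. Slice 1 at 7 dpi was low for Gja1 (log2 ratio of edge to interior -0.69, others 0.58 to 1.43), Hspb1 (-0.14, others 0.99 to 1.58) and Efemp1 (0.079, others 1.71 to 2.78). Deleter slice 1 was low for Gjb1 (-4.28, others -2.06 to -0.48), which had 0 edge UMIs there, and for Vim (-0.15, others 0.42 to 0.63). Mgp was low in slice 2 at 21 dpi (1.64, others 2.34 to 2.61) and Postn at 2 dpi (0.14, others 2.21 to 2.95).

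The edge-to-interior ratio differed between deleter and WT slices at 21 dpi, in edgeR's test of the interaction with 2 slices against 2, for 11 genes that the rule named. The difference of mean log2 ratios, deleter minus WT, was 3.22 for Htr5a (adjusted p = 0.0284), 2.02 for Dkkl1 (0.0323), 1.90 for Slc22a6 (0.0463), 1.78 for Galnt9 (0.00752) and 1.67 for Sidt1 (0.0435). It was -6.98 for Ccdc153 (1.73e-07), -5.93 for Drc7 (0.000337), -5.88 for Tctex1d4 (0.000152), -5.62 for Tmem72 (0.000286), -5.51 for Mapk15 (0.000376) and -5.36 for Rd3 (0.000382). Genotype and capture area cannot be told apart here.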

How the results depend on the processing

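The counts of genes called moved with the samples and settings more than the directions did. Outside the setting without collagen-rich spots, no called gene among those checked singly changed sign under an alternative that measured it. The comparison within collagen-rich spots was not one of these alternatives. There Spp1 (-1.09), Cd63 (-0.82), Vim (-0.94), H2-Aa (-0.45), Jchain (-1.48) and Col18a1 (-0.60), which were higher over all spots, were called lower. Col1a1, Mrc1 and Myoc stayed higher. The leading genes were picked for the same sign in all 7 slices, and subsets or sums of these slices could hardly reverse it. Their kept signs are therefore no separate support for the directions. Thinning measured 703 of the higher and 860 of the lower called genes, of which 698 and 840 kept their sign. For edge against interior (1707 higher, 1081 lower), thinning spots to 1000 UMIs gave 418 and 278, sums per area 575 and 78, and WT slices alone 512 and 54. No filter gave 1783 lower, limma on means over spots 3153 lower, and no collagen-rich spots 0 and 0. Each slice left out gave 940 to 1955 higher and 398 to 1754 lower. Past 1.5 times were slice 2 at 7 dpi (1102 and 710), deleter slice 1 (1084 and 398), deleter slice 2 (940 and 415), slices 1 and 2 at 21 dpi (553 and 555 lower) and slice 1 at 7 dpi (1754 lower). Zones of 1 slice are paired by construction: without this pairing (no replicate block), 1614 were higher and 1064 lower. Without collagen-rich spots Cd63 (-0.11), Foxp2 (-0.95), Hbb-bs (-0.14), Pdgfra (-0.0685), Spp1 (-0.45) and Vim (-0.11) reversed; the cause was not tested.

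For 21 against 7 dpi (0 and 0), DESeq2 gave 13 and 55, no filter 18 and 62, WT slices alone 63 and 42, and slices left out 0 to 43 and 0 to 19, the most without slice 2 at 7 dpi. For deleter against WT (78 and 286), DESeq2 gave 18 and 131, no filter 196 and 532, no collagen-rich spots 302 and 466, and slices left out 7 to 250 and 151 to 512. Within collagen-rich spots (721 and 786), DESeq2 gave 457 and 443, WT slices alone 422 and 264, and slices left out 518 to 956 and 490 to 958; without slice 1 at 21 dpi 490 were lower, without deleter slice 1 523 and without deleter slice 2 495. At rest (714 and 907), thinning gave 75 and 501. The mean ratio of UMIs per spot stayed below 1 in every setting. Low edge depth limits rare genes.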

Other observations

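Stress and metabolic genes of the injured slices were called in both directions. Over all genes tested 12.4% were higher and 7.85% lower, so a few calls in a short list do not set it apart. Of 12 genes encoded by mitochondria, mt-Atp8 alone was called (0.74), and mt-Co1 gave 0.00 ± 0.08. Of 11 hypoxia-inducible genes, Adm, a vasodilator peptide, and Slc2a1, a glucose transporter that endothelium also makes, were higher, and Pgk1 and Bnip3 lower. Of 9 heat shock genes, Hspb1 (1.26 ± 0.20) and Bag3 were higher and Hsph1 and Hsp90aa1 lower. Of 11 glucocorticoid-responsive genes 4 were higher, with Tsc22d3 at 1.16 ± 0.27. None of 14 cell cycle genes was called (Mki67 0.57 ± 0.42), and of 12 immediate early genes Btg2 alone was. Of 8 oligodendrocyte precursor genes 4 were lower and Pdgfra, which fibroblasts express too, was higher (0.65 ± 0.17). Of 7 choroid plexus genes Aqp1 alone was called, and of 4 neutrophil genes Mmp9 alone.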
